A study of Mus musculus with 18 samples.

Results

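Liver RNA of wild-type (WT) mice given GW4064, a synthetic agonist of the farnesoid X receptor (FXR), was compared with that of WT mice given vehicle. The comparison rests on 6 of the 18 arrays of the series, 3 WT GW4064 and 3 WT vehicle, chosen by their labelled genotype and treatment. All WT mice were males on the C57BL/6J background, 10 to 16 weeks old, dosed by oral gavage and killed 2 hours after the last dose. According to the labels GW4064 was given at 150 mg per kg in 2 doses, in the evening and the next morning. The methods of the study give 3 doses of 100 mg per kg and a fast overnight from the dose before the last, and the values do not decide between these accounts. For the arrays these methods describe WT mice only, and they name an array type other than the one annotated here. They may therefore describe another experiment, and the fast, the number of mice and the thresholds taken from them carry that doubt. The other 12 arrays come from male mice of the same background and age that lack Nr1h4, the gene for FXR, either in the liver (floxed Fxr crossed with albumin Cre, which leaves the gene in liver cells that do not express albumin) or in the whole body. Each of these genotypes was given vehicle or GW4064, with 3 arrays per group. They served here to estimate the spread of each gene and as a comparison for the genes that moved in WT livers.

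FXR is the nuclear receptor that senses bile acids, and it binds DNA together with its partner RXR. In hepatocytes it induces Nr0b2, which encodes the repressor SHP, and SHP in turn lowers transcription of Cyp7a1 and Cyp8b1, enzymes that make bile acids from cholesterol. The liver is also the main source of acute-phase proteins, plasma proteins that hepatocytes make when the cytokines IL-1 and IL-6 reach them, and of much of the body's glucose, cholesterol and fatty acid synthesis.

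Short stretches of the promoters of genes described below are shown so that the letters can be read beside the array values. They come from the RefSeq promoter table of GRCm38.p6, which holds 250 bases before and 50 bases after a gene's start and covers 9888 of the 12394 genes measured (79.8%). Each is written 5′ to 3′ on the gene's strand, with the letters of a known motif in capitals. The motif was searched on both strands, and it was chosen with the array results known. Fewer than 80% of the responding genes had an entry, so no share of the responding genes is given.

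The inverted repeat bound by FXR with RXR, searched as GGTCA, any base and TGACC, occurred in 3 of 9888 genes (0.0303%). One of these was Rdh9, a retinol and steroid dehydrogenase, where it began 78 bases before the start (chr10:127776318-127776346, plus strand).
Rdh9: atcagaacaGGTCAATGACCagagactga

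The NF-kB motif, searched as GGG, any 2 bases and TTTCC, occurred in 1.99% of genes. It was present before Cxcl1 (a chemokine that draws neutrophils), Serpina3n (an acute-phase protease inhibitor), Steap4 (a metalloreductase, here on the opposite strand) and Csad (an enzyme of taurine synthesis), at chr5:90891164-90891193, chr12:104406527-104406556 and chr5:7960236-7960265 on the plus strand and chr15:102189158-102189187 on the minus strand. The first 3 genes had a log2 fold change above 0 with GW4064 and Csad fell, so the letters did not mark one direction.
Cxcl1: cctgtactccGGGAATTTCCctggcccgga
Serpina3n: aacagaggtgGGGCTTTTCCcatcaggaag
Steap4: caaaggttccGGAAAACCCCttttataccc
Csad: gattcacagtGGGAATTTCCtctccactca

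The C/EBP motif TTNCNCAA occurred in 13.5% of genes. It is shown for 5 acute-phase genes picked for display. These are Lcn2 (chr2:32387937-32387966, minus strand), Saa1 (chr7:46743144-46743173, minus strand), Saa2 (chr7:46751639-46751668, plus strand), Orm2 (chr4:63362318-63362347, plus strand) and Orm3 (chr4:63356026-63356055, plus strand). The 5 are therefore not a count over the 26 acute-phase genes measured. Genes that fell hold the motif too, among them Csad, Acot1 and Ppfibp2. The windows of the neighboring genes Saa1 and Saa2 are nearly the same, as are those of Orm2 and Orm3.
Lcn2: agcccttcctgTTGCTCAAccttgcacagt
Saa1: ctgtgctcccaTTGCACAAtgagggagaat
Saa2: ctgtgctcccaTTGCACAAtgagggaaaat
Orm2: gagagaacattTTGCGCAAgacatttccca
Orm3: gagggaacattTTGCACAAgacatttatca

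The element bound by the clock receptors ROR and REV-ERB, AGTAGGTCA, occurred in 0.192% of genes and lay 28 bases after the start of Arntl, the core clock activator BMAL1 (chr7:113207529-113207557, plus strand). A match is a run of letters and says nothing on whether a factor was bound.
Arntl: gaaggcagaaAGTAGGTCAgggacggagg

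Nr1h4, the targeted gene, was low in the arrays labelled as knockouts. It had a log2 expression of 9.08 ± 0.29 with vehicle and 9.03 ± 0.11 with GW4064 in WT livers (SD, n = 3), whereas the group means in the knockouts were 4.46 and 4.41 in the liver knockout and 4.20 and 4.14 in the whole-body knockout. Markers of hepatocytes were at the top of the scale, with Apoa1 between 14.75 and 14.91 in the 6 WT arrays, and the intestinal lactase gene Lct lay between 3.82 and 3.89. Other intestinal and pancreatic markers were not all low. Fabp2, the intestinal fatty acid binding protein, was between 9.38 and 10.57. The summed level of the 9 measured markers was 116%, 125% and 117% of the vehicle mean in GW4064 replicates 1, 2 and 3, above the 91.2% to 114% of the vehicle arrays. Of the 9, however, 4 log2 fold changes lay above 0 and 5 below, with a median of -0.003, and Fabp2 held the highest value in the sum. An estimate of array weights gave the lowest values to WT GW4064 replicate 1 (0.48) and to 1 array of the whole-body knockout with GW4064 (0.43), beside 0.77 to 1.69 for the other WT arrays. The methods give 3 mice per treatment, so each group mean rests on few arrays. Unless another fit is named, the p-values below use the spread within the 6 groups of all 18 arrays, knockouts included.

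In WT livers 12 genes rose and 12 fell with GW4064 at an adjusted p under 0.05 (limma, 0.0968% of 12394 genes in each direction, 0.194% in all). These calls rest on the spread estimated from all 18 arrays. A fit of the 6 WT arrays alone called 0 genes in either direction, with a lowest adjusted p of 0.132 among the 24, each of which had an unadjusted p under 0.05 there. At the thresholds named in the methods of the study, an unadjusted p under 0.05 and at least 1.5 fold, 97 genes were higher (0.783%) and 115 were lower (0.928%), 1.71% in all, and 16 genes met both rules. The p here and in every later count at the study's thresholds is that of limma, whereas the methods' t-test at the same thresholds gave 34 higher and 31 lower genes. The 3 GW4064 arrays lay above all vehicle arrays for 875 genes (7.06%) and below all of them for 947 genes (7.64%), and all 24 genes past the adjusted threshold were among these, which follows in part from their selection on the same difference. The size of the calls depended on single arrays. Without GW4064 replicate 3, 138 genes rose and 130 fell, and all 24 genes were still called. Without GW4064 replicate 1 only 1 rose and 1 fell, without GW4064 replicate 2 0 and 1, without vehicle replicate 1 or 3 0 and 1, and without vehicle replicate 2 3 and 7. Csad was the only gene that passed the adjusted threshold without each of the 6 arrays in turn, although all 24 genes had the same direction and an unadjusted p under 0.05 in each of these 6 fits. At the study's thresholds the counts became 55 and 46 without GW4064 replicate 1 and 170 and 209 without replicate 3.

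The 3 GW4064 livers responded to very different degrees. In replicate 1, 110 genes lay at least 2 fold above the vehicle mean and 153 at least 2 fold below it, compared with 50 and 34 in replicate 2 and 18 and 15 in replicate 3. A vehicle array set against the mean of the remaining vehicle arrays gave 24 and 14, 6 and 17, and 28 and 12 genes, so both counts of replicate 3 lay within the range of the vehicle arrays. Vehicle arrays differed from each other by at least 2 fold in 42 to 68 genes, GW4064 replicate 1 differed from them in 271 to 302 genes, replicate 2 in 94 to 140 and replicate 3 in 38 to 82. Replicates 1 and 3, although given the same treatment, were 2 fold apart in 210 genes.

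**Figure D1:**
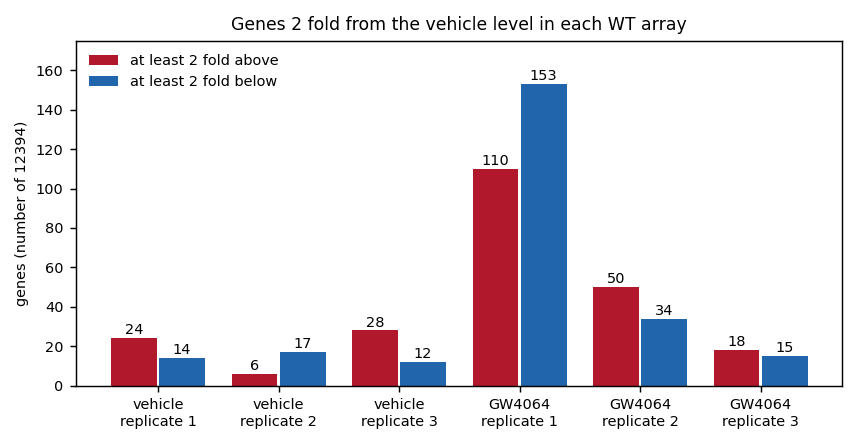
Number of genes at least 2 fold above (red) or below (blue) the vehicle level in each of the 6 WT arrays. A GW4064 array is set against the mean of the 3 vehicle arrays and a vehicle array against the mean of the other vehicle arrays. GW4064 replicate 1 has 110 and 153 such genes and replicate 3 has 18 and 15, close to the vehicle arrays.

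The same difference between the GW4064 livers ran through most responding genes. Of the 97 genes higher at the study's thresholds, 81 had their largest deviation from the vehicle mean in replicate 1 and 78 their smallest in replicate 3, with medians of 1.36, 0.88 and 0.45 on the log2 scale in replicates 1, 2 and 3. Of the 115 lower genes, 96 were farthest from vehicle in replicate 1 and 79 nearest in replicate 3, with medians of -1.33, -0.67 and -0.41. Replicate 3 lay above every vehicle array in 71 of the 97 genes and below every one in 82 of the 115. For 26 and 30 genes the groups overlapped through replicate 3 alone. In 9 higher and 4 lower genes replicate 3 lay on the far side of the vehicle mean. The genes past the adjusted threshold had median deviations of 1.12, 0.67 and 0.61 among those that rose and -0.91, -0.63 and -0.73 among those that fell. A small spread among the GW4064 arrays favors a gene in the test, and this selection was part of how they were called.

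The bile acid circuit held 2 of the 24 genes past the adjusted threshold. Nr0b2 was at 7.85, 7.86 and 8.21 in the vehicle arrays and at 10.84, 9.59 and 9.04 in GW4064 replicates 1, 2 and 3. Each GW4064 liver lay above all vehicle livers, and the gene rose by 1.85 on the log2 scale (standard error 0.34, 3.6 fold, limma adjusted p = 0.0433). Cyp8b1, the sterol 12α-hydroxylase needed for cholic acid, was at 12.23, 11.80 and 11.65 with vehicle and at 8.12, 9.79 and 10.46 with GW4064. Cyp8b1 fell by 2.44 (standard error 0.42, 5.41 fold, adjusted p = 0.0433), and it was lowest in the liver where Nr0b2 was highest. That liver, replicate 1, was farthest from vehicle in most responding genes (81 of 97 higher and 96 of 115 lower), so the match is not particular to this pair. Without GW4064 replicate 1 the log2 fold change of Cyp8b1 was -1.77. Cyp7a1, the rate-limiting enzyme, was at 10.75, 10.44 and 10.61 with vehicle but at 5.82, 7.18 and 10.19 with GW4064. Replicates 1 and 2 were far below vehicle and replicate 3 only 0.41 below the vehicle mean, so the largest log2 fold change of any gene of the pathway, -2.87, came with a standard error of 0.69 and did not pass (adjusted p = 0.111). Nr0b2, by contrast, was 1.07 above the vehicle mean in the liver of replicate 3.

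Of 19 measured enzymes of bile acid synthesis, 1 fell and none rose, 2 were lower at the study's thresholds (Cyp7a1 and Cyp8b1), and 6 lay below every vehicle array (0.928% and 7.64% of all genes). Their median log2 fold change was -0.13 (-0.22 without GW4064 replicate 3), beside -0.004 over all genes, and the median in replicate 3, -0.07, lay within that of the vehicle arrays (-0.09 to 0.07). Cyp27a1, which opens the alternative pathway, was at 11.56, 11.75 and 12.14 with GW4064 and between 11.96 and 12.23 with vehicle (log2 fold change -0.29, adjusted p = 0.458). Among 14 measured transporters of bile acids and biliary lipids none passed the adjusted test. Abcb11, the bile salt export pump, was at 11.46, 11.45 and 11.66 with GW4064 and between 11.44 and 11.66 with vehicle. Abcb4, the phospholipid flippase, gave a log2 fold change of 0.09 (standard error 0.13). Abcc2, which exports conjugates into bile, was higher in every GW4064 array by a small margin (10.01, 10.28 and 10.12, vehicle 9.82 to 9.90, log2 fold change 0.26, adjusted p = 0.246). Slc10a2, the apical bile acid transporter of ileum and bile duct, was at 6.09, 5.41 and 6.11 with GW4064 and 5.06, 4.89 and 5.69 with vehicle (log2 fold change 0.65, adjusted p = 0.222), and its groups overlapped. Fgf15, made mainly in the ileum, stayed near the bottom of the scale (4.15 to 4.46 with vehicle, 4.33 to 4.70 with GW4064).

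Csad had the lowest p-value of all genes. The enzyme makes hypotaurine, the precursor of the taurine that is joined to bile acids in mice. Its values were 11.38, 11.59 and 11.52 with vehicle and 8.14, 8.59 and 9.49 with GW4064. Csad fell by 2.76 (standard error 0.30, 6.76 fold, adjusted p = 0.000965). Even in replicate 3, where Cyp7a1 was only 0.41 below its vehicle mean, Csad lay below 10 on the log2 scale and its vehicle mean was 11.50. No other of the 16 measured genes of taurine and sulfur amino acid metabolism passed. Mat1a, which makes S-adenosylmethionine, was at 13.56, 13.06 and 12.91 with GW4064 and between 12.45 and 12.92 with vehicle.

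Acute-phase genes had the highest median log2 fold change of the 46 gene lists examined. Lcn2, a siderophore-binding protein, was at 6.14, 6.43 and 5.70 with vehicle and at 13.65, 12.91 and 8.22 with GW4064. Replicates 1 and 2 were more than 6 log2 units above vehicle and replicate 3 was 2.13 above the vehicle mean. The gene rose by 5.50 (standard error 1.05, adjusted p = 0.0433), a value that ranged from 4.47 without GW4064 replicate 1 to 7.19 without replicate 3. Of 26 measured acute-phase genes, 1 rose, none fell and 25 did not pass, but 17 were higher at the study's thresholds (0.783% of all genes were), 14 lay above every vehicle array (7.06% of all genes did), and all 26 log2 fold changes were above 0, as were 48.8% of those of all genes. The median was 1.06, and it was 1.58, 1.19 and 0.23 in replicates 1, 2 and 3 (vehicle arrays -0.02 to 0.02).

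Saa2 (serum amyloid A) was at 9.21, 8.53 and 8.67 with vehicle and 14.54, 14.29 and 10.34 with GW4064, and it just missed the threshold (log2 fold change 4.25, standard error 0.86, adjusted p = 0.0597). Saa1 was at 14.42, 14.37 and 12.59 with GW4064 and 11.79, 11.18 and 11.07 with vehicle (adjusted p = 0.0622). Probes for Saa1 and Saa2 can share transcripts, so the pair is not independent. Orm3, an orosomucoid that carries drugs in plasma, was at 9.33, 8.32 and 6.52 against 5.60 to 6.06 (log2 fold change 2.26, adjusted p = 0.0551). Serpina3n was at 13.54, 12.91 and 10.89 against 10.25 to 10.68 (1.97, adjusted p = 0.0872), and Lbp, which presents bacterial lipopolysaccharide, at 12.31, 11.21 and 10.27 against 9.86 to 10.11 (1.27, adjusted p = 0.214). In each of these genes replicate 3 lay above the highest vehicle array and well below replicates 1 and 2.

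Genes of cytokine signaling were mixed. Il1r1, the signaling receptor of IL-1, rose by 1.62 (standard error 0.31, adjusted p = 0.0433), from 8.83, 8.27 and 8.43 with vehicle to 10.82, 10.43 and 9.15. It was the only 1 of 22 measured genes of IL-1 and IL-6 signaling to pass. Socs3, the feedback inhibitor of IL-6 signaling, was at 10.47 and 10.15 in replicates 1 and 2 and at 7.55 in replicate 3, inside the vehicle range of 7.36 to 7.98 (log2 fold change 1.81, adjusted p = 0.236). Of 24 measured NF-kB targets and chemokines none passed, and 5 were higher and none lower at the study's thresholds (0.783% and 0.928% of all genes). Of the 24, 21 had a log2 fold change above 0 (48.8% of all genes did), with a median of only 0.08 (0.01 without GW4064 replicate 1). Cxcl1 was at 11.02, 11.33 and 7.96 against 6.83 to 7.26 (3.03, adjusted p = 0.197), and Nfkbiz, a co-regulator of IL-1 responses, at 7.99, 7.91 and 7.17 against 6.48 to 6.56 (1.19, adjusted p = 0.07). S100a8 and S100a9, the subunits of calprotectin, were at 7.56 and 7.66 in replicate 1, 5.83 and 6.00 in replicate 2 and 4.30 and 4.97 in replicate 3. Vehicle values were 4.26 to 4.51 and 4.71 to 5.14. Both are abundant in neutrophils. The summed level of the 11 measured neutrophil markers, which include this pair, was 207%, 123% and 94.8% of the vehicle mean in GW4064 replicates 1, 2 and 3, compared with 92.3% to 111% in the vehicle arrays. Of the 11 markers, 7 had a log2 fold change above 0, with a median of 0.04 that was -0.04 without vehicle replicate 3. Ngp, a granule protein, had a log2 fold change of -0.22 and Mpo, myeloperoxidase, of -0.13. The part of neutrophils in the inflammatory genes was not tested. In bulk liver, more cells of a type and more RNA per cell cannot be told apart.

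Prtn3, a serine protease of granulocytes, was at 8.63, 6.90 and 4.80 with GW4064 and at 4.32 to 4.56 with vehicle (log2 fold change 2.34, adjusted p = 0.114). The metallothioneins Mt1 and Mt2, which bind zinc and are induced by glucocorticoids and cytokines, had wide spreads with vehicle. Mt2 ran from 7.40 to 10.86 in the vehicle arrays and was at 13.55, 13.49 and 10.00 with GW4064, so a log2 fold change of 3.22 had a standard error of 1.21 and an adjusted p of 0.276. Slc39a14, an importer of zinc and iron induced by IL-6, was at 11.05, 10.52 and 10.04 against 9.64 to 10.08 (0.62, adjusted p = 0.216). Complement and coagulation factors, also secreted by hepatocytes, had 34 measured members, none past either threshold, and a median of 0.06. Masp1, a protease of the lectin pathway, was at 10.48, 10.59 and 10.44 against 10.08 to 10.22 (0.36, adjusted p = 0.136), but only this 1 of its 5 probe sets was higher, and the mean of the 5 gave -0.08. Of 20 interferon-induced genes none passed either rule.

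**Figure D2:**
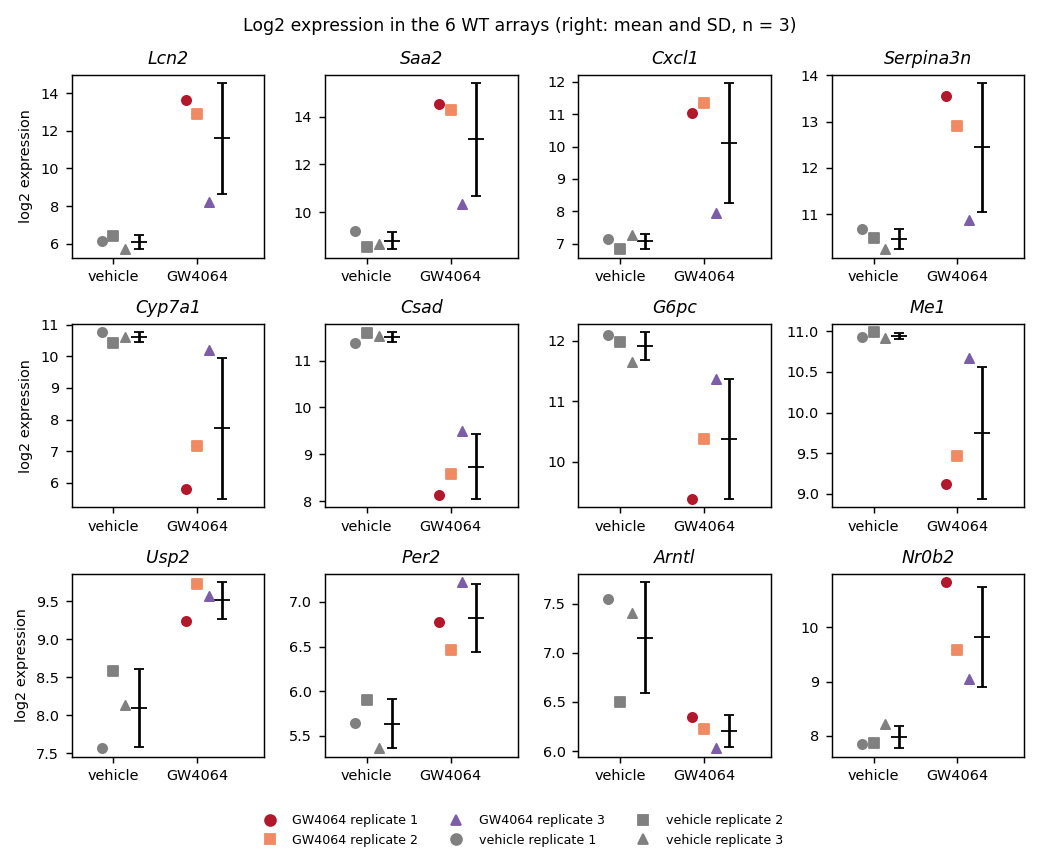
Log2 expression of 12 genes in the 6 WT arrays (vehicle grey, GW4064 colored, 1 marker shape per replicate number), with mean and SD (n = 3) at the right of each group. In the top row replicates 1 and 2 lie far above vehicle and replicate 3 (triangle) much nearer to it. Cyp7a1, G6pc and Me1 show the same on the lower side, and in Usp2, Per2 and Arntl replicate 3 lies with the other GW4064 arrays.

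Not every gene was nearest to vehicle in replicate 3. Usp2, a deubiquitinase with a strong daily rhythm, was at 7.57, 8.58 and 8.14 with vehicle and 9.24, 9.72 and 9.57 with GW4064. It rose by 1.42 (standard error 0.22, adjusted p = 0.0327), and replicate 3 was 1.47 above the vehicle mean, more than the 1.15 of replicate 1. Per2, a repressor of the clock, was at 5.64, 5.90 and 5.36 with vehicle and 6.78, 6.46 and 7.23 with GW4064 (log2 fold change 1.19, adjusted p = 0.0872), highest in replicate 3. Arntl, whose promoter window is shown above, was at 7.55, 6.50 and 7.41 with vehicle and 6.35, 6.23 and 6.03 with GW4064 (-0.95, adjusted p = 0.128), lowest in replicate 3. Of 20 measured clock genes, Usp2 rose, 19 did not pass, and 4 lay above and 1 below all vehicle arrays (of all genes 0.0968% rose, 7.06% lay above and 7.64% below). Cry2, another clock repressor, differed by 0.25 (adjusted p = 0.279). The time of death of single mice was not given in the sources used here, and the part of circadian time in these values was not tested.

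Genes induced by glucocorticoids were mixed. Of 15 measured none passed, 3 were higher and 1 lower at the study's thresholds, and the median was 0.27 (0.783% and 0.928% of all genes were higher or lower). The median was 0.09 without vehicle replicate 1, 0.12 without GW4064 replicate 1, 0.12 with the mean of probe sets and 0.02 with every probe set. Fkbp5, a chaperone of the glucocorticoid receptor, was at 10.28, 9.82 and 9.18 with GW4064 and 7.93, 8.04 and 8.69 with vehicle (log2 fold change 1.54, adjusted p = 0.146). Tsc22d3, which encodes the glucocorticoid-induced leucine zipper, was at 10.33, 10.61 and 10.86 against 9.62 to 10.18 (0.63, adjusted p = 0.111), and Zbtb16, another hormone-induced factor, at 7.81, 7.94 and 7.47 against 6.10 to 6.94 (1.10, adjusted p = 0.249). Igfbp1, which insulin represses, went the other way, at 9.27, 9.91 and 10.49 against 10.75 to 11.84 (-1.53, adjusted p = 0.18). Dusp6, a phosphatase of ERK, and Foxq1, a forkhead factor, had their largest deviations in replicate 3, at 1.70 above and 1.79 below the vehicle mean, and neither passed (adjusted p = 0.124 and 0.307). Their log2 fold changes were 1.01 and -1.05 in WT and 1.04 and -1.14 in the liver knockout. In the whole-body knockout they were -0.15 and -0.46.

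The remaining genes that rose were a varied set. Prg4, a secreted glycoprotein known as lubricin, rose by 2.07 (standard error 0.40, adjusted p = 0.0433), from 8.52, 8.43 and 8.05 to 11.40, 10.63 and 9.18. Aqp4, a water channel, rose by 0.92, from 4.42, 4.50 and 4.19 to 5.73, 5.12 and 5.01, and both of its probe sets agreed at an unadjusted p under 0.05. Its vehicle values were close to the 4.15 to 4.46 of Fgf15, near the bottom of the scale. Ripk4, a protein kinase, rose by 0.75 and Rab4b, a GTPase of recycling endosomes, by 0.68, with replicate 1 the highest in both. The smallest rises were of similar size in all 3 livers for Blzf1 and Cdc42ep1 but less so for Xdh and Lipt2. Xdh, xanthine oxidoreductase, was 0.65, 0.50 and 0.33 above the vehicle mean in replicates 1, 2 and 3, Lipt2, a lipoyl transferase of mitochondria, 0.60, 0.33 and 0.56, Blzf1, a Golgi protein, 0.36, 0.42 and 0.42, and Cdc42ep1, an effector of CDC42, 0.42, 0.40 and 0.37. Their folds were 1.41, 1.41, 1.32 and 1.32, under the 1.5 fold of the study.

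Among the genes that fell, Dnase2a, the acid nuclease of lysosomes, was at 10.68, 11.37 and 10.82 with vehicle and 7.93, 8.75 and 9.87 with GW4064. It fell by 2.11 (standard error 0.37, adjusted p = 0.0433), and no other of the 30 measured genes of autophagy and lysosomes passed. Acot1, a cytosolic acyl-CoA thioesterase and a target of PPARα, fell by 1.60 (standard error 0.29), from 6.81, 7.98 and 7.20 to 5.22, 5.59 and 6.39. Rell1, a membrane protein, was 1.27, 0.88 and 0.77 below the vehicle mean, and both probe sets agreed. Denn2b, a guanine exchange factor, fell by 0.81, and its lowest array was replicate 3 (7.51, 7.73 and 7.42, vehicle 8.04 to 8.54). Epb41l2, a membrane skeleton protein, and Ppfibp2, a liprin scaffold, fell by 0.67 and 0.60. Of the 4 probe sets of Epb41l2, 3 were lower, 1 of them at an unadjusted p under 0.05. Bmp6, the endothelial signal that induces hepcidin, was at 5.24, 5.23 and 5.42 with vehicle and 4.59, 4.81 and 4.78 with GW4064 (-0.57, standard error 0.09), and was the only 1 of 18 measured genes of iron handling to pass. Eps8l2 (an actin regulator), Sstr2 (a somatostatin receptor) and Tfap2a (a transcription factor) fell by 0.55, 0.55 and 0.50, with replicate 3 as far from vehicle as replicate 1 in each. Of the 3 probe sets of Tfap2a, 2 were lower, 1 of them at an unadjusted p under 0.05.

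**Figure D3:**
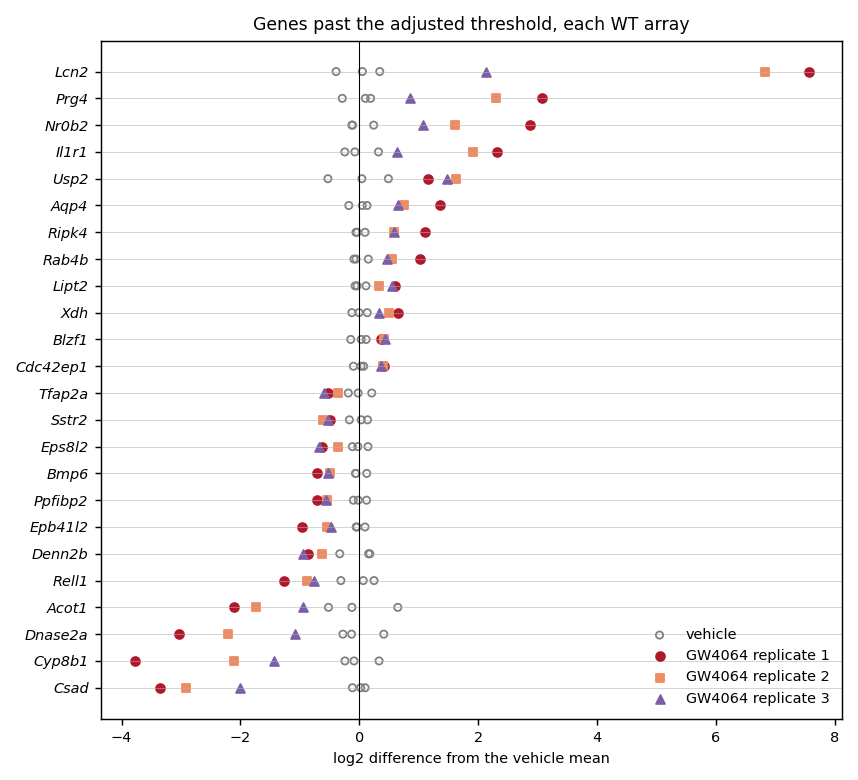
Log2 difference from the vehicle mean in each WT array for the 24 genes past the adjusted threshold (12 higher, 12 lower). Open circles are the 3 vehicle arrays and filled markers the GW4064 arrays. The groups do not overlap for any of these genes, replicate 1 is farthest out for the responses over 1.5 log2 units, and several of the small ones, such as Blzf1 and Cdc42ep1, are even across replicates while others, such as Rab4b and Epb41l2, are not.

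The lipogenic genes lay mostly on the lower side. Among 25 measured genes that make fatty acids and triglycerides, 6 were lower and 0 higher at the study's thresholds (0.928% and 0.783% of all genes). Of the 25, 0 passed the adjusted one, and 23 log2 fold changes lay below 0 (51.2% over all genes). Their median was -0.38, and -0.90, -0.42 and -0.11 in replicates 1, 2 and 3 (vehicle arrays -0.10 to 0.05). Without GW4064 replicate 1 it was -0.21 and without replicate 3 -0.68. Me1, malic enzyme, was at 10.93, 10.99 and 10.92 with vehicle and 9.12, 9.46 and 10.67 with GW4064 (-1.20, adjusted p = 0.138). Acly, ATP citrate lyase, was at 9.81, 10.29 and 11.13 against 11.07 to 11.83 (-0.96, adjusted p = 0.206), and all 5 of its probe sets were lower. Mlxipl, the carbohydrate response factor ChREBP, gave -0.57 (adjusted p = 0.206), with 8.82, 9.57 and 9.88 against 9.89 to 10.04.

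Cholesterol synthesis differed in its pattern. Of 20 measured genes none passed, 5 were lower at the study's thresholds and 19 lay on the lower side (0.928% and 51.2% of all genes). The median was -0.41 (-0.23 without GW4064 replicate 2). The lowest median was in replicate 2 (-0.73), with -0.50 in replicate 1 and -0.17 in replicate 3, and vehicle replicate 2 was also low at -0.15. Fdps, farnesyl diphosphate synthase, was at 10.94, 10.81 and 11.72 against 11.92 to 12.28 (-0.94, adjusted p = 0.227), and Pmvk, phosphomevalonate kinase, at 7.31, 7.28 and 8.12 against 8.22 to 8.78 (-0.84, adjusted p = 0.202). The medians of the same list in the liver and whole-body knockouts given GW4064 were -0.27 and -0.23, and the difference from WT was not tested for the list.

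Fatty acid oxidation had 1 fall (Acot1) among 25 measured genes, 4 lower at the study's thresholds and 7 below every vehicle array (0.0968%, 0.928% and 7.64% of all genes), with a median of -0.10 that turned to 0.03 without vehicle replicate 2. Acaa1b, a peroxisomal thiolase, was at 10.66, 12.32 and 12.97 against 13.23 to 13.52 (-1.40, adjusted p = 0.133), and Ehhadh, the bifunctional peroxisomal enzyme, at 9.62, 10.24 and 10.93 against 10.99 to 11.24 (-0.82, adjusted p = 0.15). Among glucose genes G6pc, the catalytic subunit of glucose-6-phosphatase, was at 9.38, 10.37 and 11.37 against 11.65 to 12.10 (-1.53, adjusted p = 0.0872). Pck1, which opens gluconeogenesis, was not lower (12.98, 13.29 and 12.87 against 12.40 to 12.87, 0.44, adjusted p = 0.267). Ppp1r3c, a glycogen-targeting subunit of protein phosphatase, was at 10.66, 11.05 and 10.31 against 8.80 to 9.81 (1.28, adjusted p = 0.247). Apoa4, a lipoprotein of fasting and fat loading, was at 11.82, 11.32 and 9.40 against 9.24 to 9.53 (1.42, adjusted p = 0.2). The receptors Scarb1 and Lrp1, which take up HDL lipids and remnants, each gave 0.48, with adjusted p of 0.159 and 0.217. Genes of apolipoproteins and lipoprotein remodeling did not rise as a group. Of 23 measured, 10 log2 fold changes lay above 0 and 13 below (48.8% and 51.2% of all genes), with a median of -0.03. At the study's thresholds 1 was higher and 0 were lower (0.783% and 0.928% of all genes).

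Drug and retinol metabolism split by gene. Of 27 measured conjugation enzymes none passed, and 1 was higher and 3 were lower at the study's thresholds (0.783% and 0.928% of all genes). Their median was -0.57, -0.23 and 0.12 in replicates 1, 2 and 3. Sult1d1, a sulfotransferase, was among the evenest genes of the table, at 11.60, 11.77 and 11.68 against 10.81 to 11.39 (0.63, adjusted p = 0.0906). Gsta2, a glutathione transferase, was at 8.08, 9.59 and 11.03 against 10.52 to 11.38 (-1.34, adjusted p = 0.259). Of 8 measured carboxylesterases 3 were lower at the study's thresholds (0.928% of all genes), and Ces1e was at 7.20, 8.22 and 9.13 against 9.26 to 9.72 (-1.36, adjusted p = 0.111). Cyp2b10, the classic target of the receptor CAR, was at 9.37, 8.81 and 8.37 against 7.36 to 7.72 (1.36, adjusted p = 0.289), and Cyp3a13 at 12.34, 11.78 and 11.28 against 10.78 to 11.10 (0.84, adjusted p = 0.18). In the liver and whole-body knockouts GW4064 gave 0.74 and 1.07 for Cyp2b10, and -0.06 and 0.23 for Cyp3a13. Rdh9, which holds the inverted repeat shown above, was at 10.85, 10.41 and 10.51 with GW4064 and 9.42, 10.12 and 8.84 with vehicle (1.13, adjusted p = 0.101), nearly equal in the 3 GW4064 livers, and Rdh11, a retinal reductase, was at 7.41, 7.71 and 8.62 against 8.76 to 9.36 (-1.07, adjusted p = 0.206).

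Of 40 measured nuclear subunits of oxidative phosphorylation none met either rule, 36 lay on the lower side and 9 below every vehicle array (51.2% and 7.64% of all genes), and the median was -0.11 (0.00 in replicate 3). Ndufs1, a core subunit of complex I, was at 9.79, 9.80 and 10.11 against 10.21 to 10.27 (-0.34, adjusted p = 0.124). Of 24 measured genes of endoplasmic reticulum stress 21 were above 0 (48.8% of all genes) with a median of 0.19, and none met either rule. Among 13 heat shock proteins, Hspb1 was at 8.09, 8.26 and 8.88 against 9.52 to 9.76 (-1.24, adjusted p = 0.188). The 31 measured ribosomal protein genes had a median of 0.01, and the 33 proteasome subunits one of -0.06. Male-biased liver genes had a median of -0.60 over 11 measured, with -1.09, -0.35 and -0.22 in replicates 1, 2 and 3, but vehicle arrays ran from -0.19 to 0.26 and none of the 11 met either rule. Without GW4064 replicate 1 the median was -0.28. In the knockouts given GW4064 the median of this list was -0.03 (liver) and -0.73 (whole body). The difference from WT was not tested for the list.

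**Figure D4:**
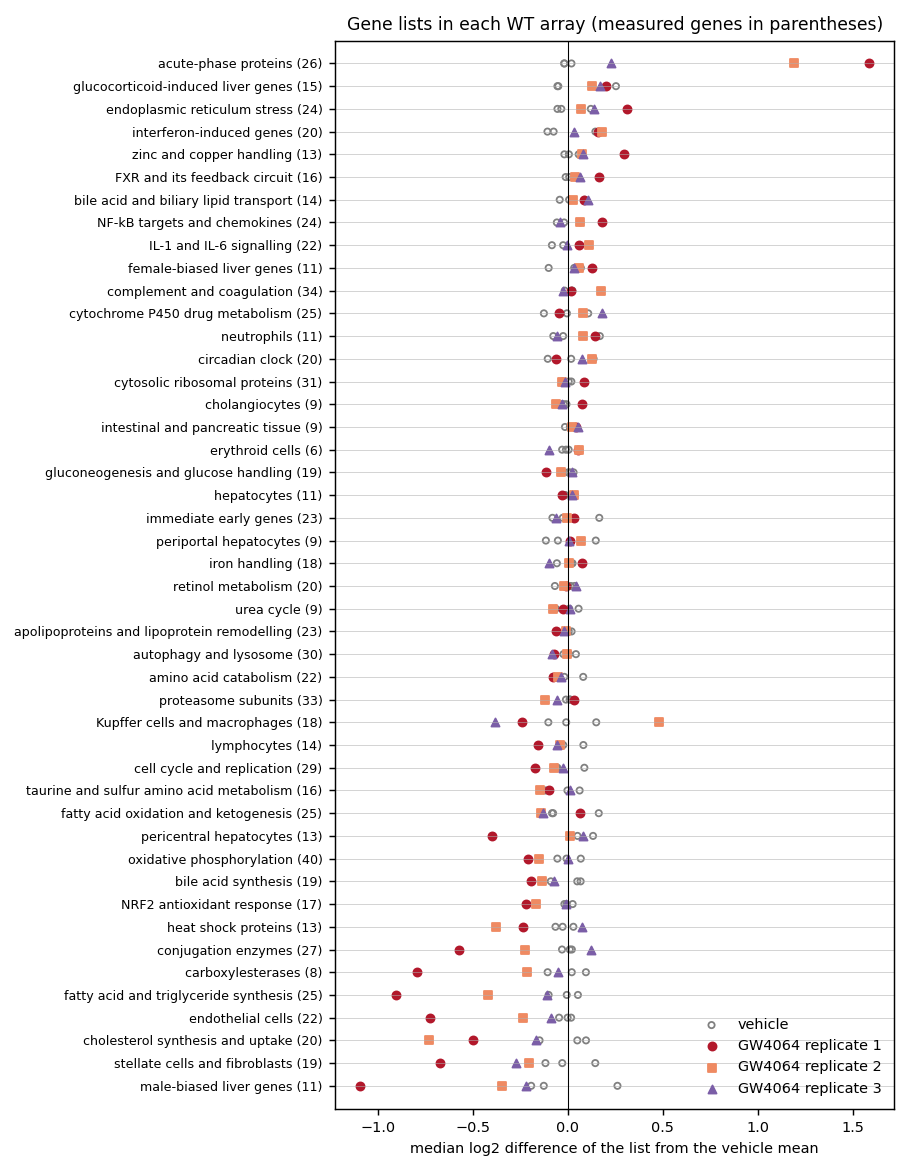
Median log2 difference from the vehicle mean over the measured members of 46 gene lists in each WT array (number of members in parentheses, lists ordered by their log2 fold change). Open circles are vehicle arrays, filled markers GW4064 replicates 1, 2 and 3. Acute-phase proteins lie at 1.58, 1.19 and 0.23, and in most displaced lists replicate 3 lies closest to vehicle.

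Markers of endothelial and stellate cells lay mostly below their vehicle levels. All 22 log2 fold changes of endothelial markers were negative, as were 51.2% of those of all genes. None passed the adjusted threshold, and 3 were lower at the study's thresholds (0.928% of all genes). The median was -0.38 (-0.73, -0.24 and -0.09 in replicates 1, 2 and 3, and -0.20 without GW4064 replicate 1). Their summed level was 61.6%, 87.9% and 92.1% of the vehicle mean, and 95.0% to 106% in the vehicle arrays. Mrc1, the mannose receptor, was at 7.40, 8.47 and 8.68 against 8.64 to 9.07 (-0.67, adjusted p = 0.224), and Ramp2, a partner of the adrenomedullin receptor, at 5.37, 5.76 and 6.40 against 6.35 to 6.43 (-0.55, adjusted p = 0.22). Of 19 measured markers of stellate cells and fibroblasts 17 were below 0, 5 were lower at the study's thresholds and 9 lay below every vehicle array (51.2%, 0.928% and 7.64% of all genes), with a median of -0.43 that was -0.27 without GW4064 replicate 1. Their summed level was 47.1%, 83.3% and 81.2% of the vehicle mean, against 90.9% to 114%. Rgs5, a pericyte gene, was at 6.26, 7.40 and 7.33 against 7.68 to 8.35 (-0.92, adjusted p = 0.178), and Reln, reelin, at 6.63, 8.14 and 8.28 against 8.34 to 8.66 (-0.78, adjusted p = 0.261). Ccn2 (connective tissue growth factor) was at 5.82, 6.88 and 6.84 against 7.41 to 8.85 (-1.40, adjusted p = 0.117). Igfbp3, a carrier of insulin-like growth factors, was at 4.63, 5.26 and 5.14 against 5.52 to 6.87 (-1.10, adjusted p = 0.124). Bmp6 is itself made by endothelial cells. The part of cell composition in these values was not tested.

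The summed level of 6 measured erythroid markers was also below the vehicle range in each GW4064 array. It was 82.1%, 87.0% and 88.6% of the vehicle mean, against 92.7% to 107% in the vehicle arrays. Of the 6, 3 log2 fold changes lay above 0 and 3 below, with a median of -0.01. A sum gives most weight to the highest genes, and Alas2 (log2 fold change -0.34) held the highest value of the list, 9.51. Cholangiocyte markers lay between 85.2% and 88.0%, within the wide vehicle range of 69.4% to 131%. The summed level of Kupffer cell markers was raised in GW4064 replicate 2 only, at 92.5%, 140% and 89.9% of the vehicle mean, and vehicle replicate 2 had the highest value of its group (114%). Their median log2 difference from vehicle was -0.24, 0.48 and -0.38. Single markers could differ, as Marco deviated from its vehicle mean by 2.03, 1.09 and -0.72 in replicates 1, 2 and 3. Hepatocyte markers summed to 98.8%, 99.6% and 101%, within the 98.5% to 103% of the vehicle arrays. Pericentral hepatocyte markers were at 73.3%, 93.4% and 105%, where vehicle arrays ran from 86.1% to 108%. Lymphocyte markers were at 82.6%, 95.1% and 89.0% against 91.0% to 106%.

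The same contrast in mice without FXR gave 0 genes past the adjusted threshold in either knockout (limma), with 622 genes at an unadjusted p under 0.05 in the liver knockout and 775 in the whole-body knockout. At the study's thresholds 28 genes were higher (0.226%) and 29 lower (0.234%) in the liver knockout, and 41 (0.331%) and 26 (0.21%) in the whole-body knockout. All 24 genes of the WT contrast had a smaller effect in both knockouts, which follows in part from their selection on a large WT effect. The difference between the WT effect and the knockout effect was tested in the same fit. No gene passed the adjusted threshold for either knockout, with a lowest adjusted p of 0.437 for the liver and 0.193 for the whole-body knockout, and 7.46% and 8.21% of all genes had an unadjusted p under 0.05. Among the 24 genes, 19 and 22 had one, although these were chosen by the WT effect, which is a term of the difference. Without GW4064 replicate 3 the difference passed for 50 genes in the liver and 22 in the whole-body knockout, and without vehicle replicate 2 for 2 in the whole-body knockout (0 in the liver knockout).

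Within the 24, the genes differed in what the liver knockout retained. Csad had an effect of -1.99 in the liver knockout and -0.28 in the whole-body knockout, beside -2.76 in WT, and the difference from WT had an unadjusted p of 0.0922 and 2.5e-05 (limma). Dnase2a showed the same, with -1.69 and -0.24 beside -2.11. Nr0b2 had 0.91 in the liver knockout and -0.75 in the whole-body knockout beside 1.85, and Usp2 0.61 and -0.28 beside 1.42. Il1r1 had -0.23 and -0.39 beside 1.62 in WT (unadjusted p of the difference 0.000641 and 0.000302), and Lcn2 -0.46 and 1.70 beside 5.50 (0.000925 and 0.0204). Without the whole-body knockout array of lowest weight (GW4064 replicate 3 of that genotype), the whole-body effect was 0.77 for Lcn2, -0.46 for Nr0b2 and -0.41 for Csad. Acot1 was at 0.29 and -0.43 beside -1.60, and Bmp6 at 0.06 and -0.36 beside -0.57. None of these differences passed after adjustment over all genes. An effect leaves out the starting level, and vehicle means differed between genotypes for some of the 24. In WT, liver knockout and whole-body knockout they were 6.09, 8.76 and 8.38 for Lcn2. For Csad they were 11.50, 10.51 and 11.41, and its means with GW4064 were 8.74, 8.52 and 11.1. The vehicle level of Csad was thus lower in the liver knockout, and its GW4064 level was not higher than in WT. For Sstr2 the vehicle means were 5.57, 5.06 and 5.09, beside 5.02 in WT with GW4064. Others were closer, as for Nr0b2 (7.97, 7.92 and 8.36) and Epb41l2 (7.01, 6.83 and 7.08). The part of these starting levels was not tested.

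**Figure D5:**
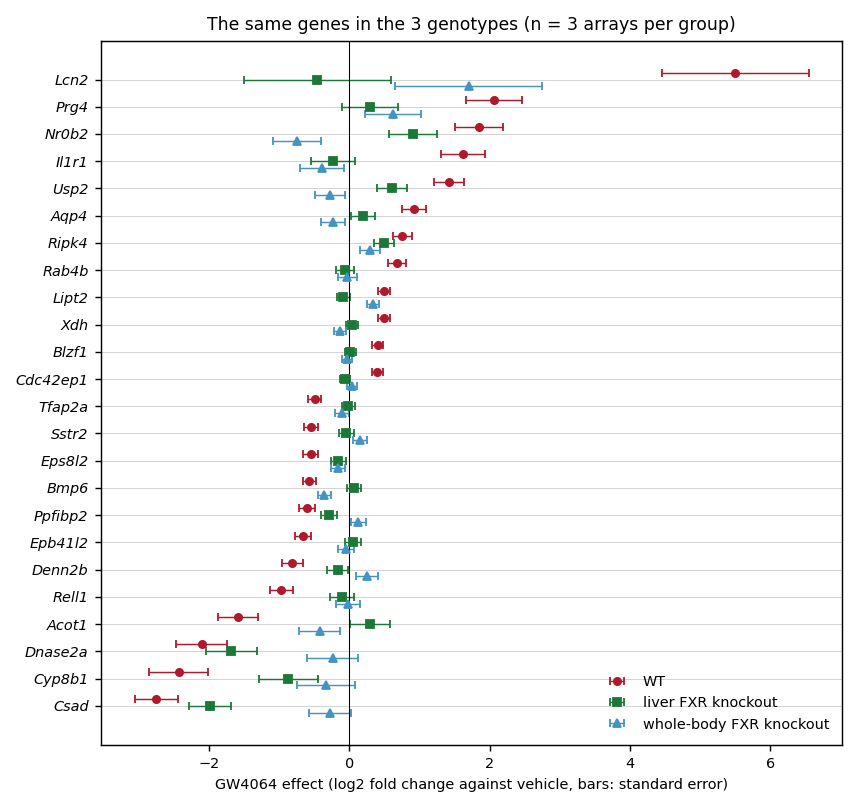
GW4064 effect (log2 fold change against vehicle of the same genotype, bars are the standard error of the limma fit, n = 3 arrays per group) for the 24 genes called in WT livers, by genotype (WT, or FXR deleted in liver or whole body). The effect is smaller in both knockouts for every gene, which follows in part from their selection on the WT effect. Csad and Dnase2a keep -1.99 and -1.69 in the liver knockout.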

How the data were processed

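Liver RNA was hybridised to Affymetrix 3′ expression arrays (annotated as Mouse430A_2 in the platform table, while the methods name the Mouse Gene 1.0 ST Array). The deposited values were log2 expression after RMA by the authors, for 22690 probe sets and 18 arrays in 6 groups of 3. The RMA version is not given in the sources used here. Of the probe sets, 20393 had 1 gene symbol, 691 several and 1606 were unnamed here. For 4958 genes with several probe sets the one with the highest mean was kept, which left 12394 genes. Near-identical genes (Saa1 and Saa2, the Orm genes, Mt1 and Mt2, carboxylesterases) can share probes and are uncertain as single genes.

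The groups were compared with limma 3.58.1 in R 4.3.3, with 6 group means over all 18 arrays (12 residual and 4.59 prior degrees of freedom), two-sided, Benjamini-Hochberg adjusted over all genes. Every adjusted p is from limma. The difference in GW4064 effect between genotypes was a contrast of the same fit. The script was tested on simulated data. Array medians ran from 5.96 to 6.00. The number of arrays limits the precision. Alternatives were other priors, weights, normalizations, filters, probe set rules, a replicate block, the methods' t-test and leaving out each array.

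The gene lists and members were chosen with earlier results of these data known. Genes were named if past the adjusted threshold, if among the 20 largest rises or 20 largest falls at the study's thresholds without overlap of the groups, if among the 4 members of a list with the lowest p, or if among Nr1h4, Fgf15, Cyp7a1, Cyp8b1, Nr0b2, Abcb11 and Abcb4. Orm2 was shown for its promoter only and was chosen after its values were seen.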

Additional observations from a re-analysis of the deposited data

How the results depend on the processing

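The counts depended on the fit more than the direction of the genes did. All of the 24 genes that were measured kept their direction and an unadjusted p under 0.05 in every fit run. Some of the 24 were weakly expressed. The vehicle means of Aqp4, Bmp6, Sstr2 and Lipt2 (4.37, 5.30, 5.57 and 5.66) lay below the array medians. With the lowest 40% of genes left out, 21 of the 24 remained, and all 21 were still called. Genes higher and lower at an adjusted p under 0.05 numbered 0 and 0 with the 6 WT arrays only, where 188 genes met the study's thresholds, 4 and 7 with a trended and robust prior, 20 and 12 with array weights, and 4 and 8 with the mean of probe sets. Without both arrays of lowest weight, a setting chosen after seeing the data, they numbered 1 and 2, and 64 and 51 at the study's thresholds. Leaving out 1 WT array gave 0 to 138 higher and 1 to 130 lower genes, and 55 to 170 and 46 to 209 at the study's thresholds, the largest without GW4064 replicate 3 and the smallest at the study's thresholds without GW4064 replicate 1. The methods' t-test called 34 higher and 31 lower genes at the study's thresholds, and 0 and 0 after Benjamini-Hochberg adjustment, with 838 genes at an unadjusted p under 0.05. Testing every probe set gave 143 higher and 173 lower. The WT effect differed from the knockout effect in 0 to 50 genes (liver) and 0 to 22 genes (whole body) when 1 array was left out. The cause of these shifts was not tested.

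Same-numbered vehicle and GW4064 arrays did not deviate together (correlations 0.0047, 0.037 and -0.034), so the numbers were not taken as pairs. With the replicate number as a block 8 genes were higher and 8 lower, 96 and 119 at the study's thresholds, and the whole-body difference passed for 2 genes.

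Among the genes named, the sign turned for Abcb11 (-0.11 to 0.012 with 1 array left out), Abcb4 (-0.050 to 0.20) and Nr1h4 (-0.17 to 0.11), for Apoa1 with quantile normalization (0) and for Masp1 with the mean of probe sets (-0.078).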
